A study of Homo sapiens with 6 samples.

Results

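Glycolysis and its oxygen-regulated neighbours were followed in PC3 cells through 44 genes: the glucose transporters, the enzymes that turn glucose into pyruvate and lactate, the kinases that hold pyruvate back from mitochondria, genes outside glycolysis that hypoxia-inducible factor (HIF) induces, and the oxygen sensors and HIF subunits themselves. The genes were taken by symbol, 1 row of the array table per gene, and 41 of the 44 had a row of their own among the 22465 genes measured. SLC16A1, SLC16A3 and CA9 were not analysed here.

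PC3 is an established human prostate cancer cell line derived from a bone metastasis. Cultures were transiently transfected with a miR-130a precursor (miR-130a, 3 arrays) or with a negative control precursor (negative control, 3 arrays), and both groups shared the same growth medium with serum. The series describes 3 independent experiments, and the labels give no oxygen tension and no time after transfection. Total RNA was measured on Affymetrix arrays, and every level below is the authors' log2 expression value after RMA.

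Glycolysis splits glucose into pyruvate in the cytosol, and cancer cells often run it at a high rate even when oxygen is present. HIF is a pair of subunits, an alpha subunit (HIF1A or EPAS1) and ARNT. When oxygen is plentiful, the prolyl hydroxylases EGLN1, EGLN2 and EGLN3 mark the alpha subunit, VHL then leads it to degradation, and HIF1AN blocks its activity. When oxygen is short, HIF switches on glucose transporters, most glycolytic enzymes, pyruvate dehydrogenase kinases, and genes of acid handling, mitophagy and vessel growth. HIF alpha subunits are set mainly at the protein level, which arrays do not read.

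The arrays resembled each other closely, with 1 that stood apart. Over all 67528 rows with values, the miR-130a arrays correlated at 0.9964 to 0.9967 with each other, whereas negative control 3 correlated at 0.992 and 0.9923 with the other controls, so results are also given without it. The epithelial markers were KRT8, KRT18, EPCAM and CDH1. Their mean log2 value was 8.451 to 8.498 on the miR-130a arrays, against 8.245 to 8.315 on the control arrays. KRT18 rose (difference 0.39, adjusted p = 0.018, limma). KRT8 (difference 0.16), CDH1 (0.29) and EPCAM (-0.03) did not pass. The luminal prostate genes KLK3, KLK2 and TMPRSS2, which PC3 is known to express little, did not pass the test. Of 6 markers of leukocytes, fibroblasts and endothelium, CD68 fell (difference -0.45, adjusted p = 0.00325, limma) and PTPRC, CD3E, COL1A1, PECAM1 and VWF did not pass. The mean log2 value of these 6 was 6.058 to 6.106 on the miR-130a arrays and 6.099 to 6.229 on the control arrays. PTPRC, the pan-leukocyte antigen, lay at 2.65 to 2.79 on all arrays, far below the median row. The other 5 were brighter than the median row, and CD68 lay at 9.71 to 9.74 with miR-130a and 10.15 to 10.21 in controls. The part of these markers in the results below was not tested.

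With miR-130a, 9 of the 41 genes fell and 0 rose (limma, Benjamini-Hochberg over all 22465 genes, adjusted p below 0.05). Over all genes, 1.74% were called lower and 2.48% higher by the same rule, and among the 16089 genes brighter than the median row (log2 above 4.995), where 39 of the 41 lay, 2.31% were called lower and 3.29% higher. The 9 were the glucose transporter SLC2A1, the glycolytic enzymes ALDOC, PGAM1 and ENO2, the glycolytic regulator PFKFB3, the pyruvate dehydrogenase kinases PDK1 and PDK3, the mitophagy receptor BNIP3 and the carbonic anhydrase CA12. Their falls were small, 1.21-fold to 1.38-fold, and the highest miR-130a value of each lay 0.152 to 0.285 below its lowest control value on the log2 scale. At an unadjusted p below 0.05, 18 of the 41 were lower and 2 higher, against 8.34% and 8.16% of all genes. In cultures measured in bulk, fewer expressing cells and less RNA per cell cannot be told apart.

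Most of the 41 genes leaned the same way. The counts and medians here include the 9 that fell, which were called from the same values. The difference was below 0 for 33 of the 41, against 56.8% of all genes, and the miR-130a and control values did not overlap for 22 lower and 3 higher genes, where 11.9% of all genes lay lower without overlap and 11.7% higher. The median difference over the 41 was -0.09, against -0.01 over all genes. The 27 genes of glucose, pyruvate and lactate metabolism had a median of -0.14 with 7 falls, the 6 HIF targets outside glycolysis -0.04 with 2 falls, and the 8 oxygen-sensing genes 0.01 with 0 falls (4 with an unadjusted p below 0.05, 2 in each direction). These sets were not tested against each other.

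The count of falls rested on small margins. Without negative control 3, 15 genes fell, the same 9 with HK2, TPI1, PGK1, LDHA, EPAS1 and HIF1AN, and 0 rose, at a background of 5.14% of all genes called lower and 4.88% higher. Leaving out miR-130a 1 or miR-130a 3 left 0, negative control 1 left 1, miR-130a 2 left 2 and negative control 2 left 7. When all 67528 rows were tested the count was 0, with adjusted p between 0.0587 and 0.152 for the 9, and after centring each array on its median it was 3. All 9 differences kept their sign in each of these fits.

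**Figure D1:**
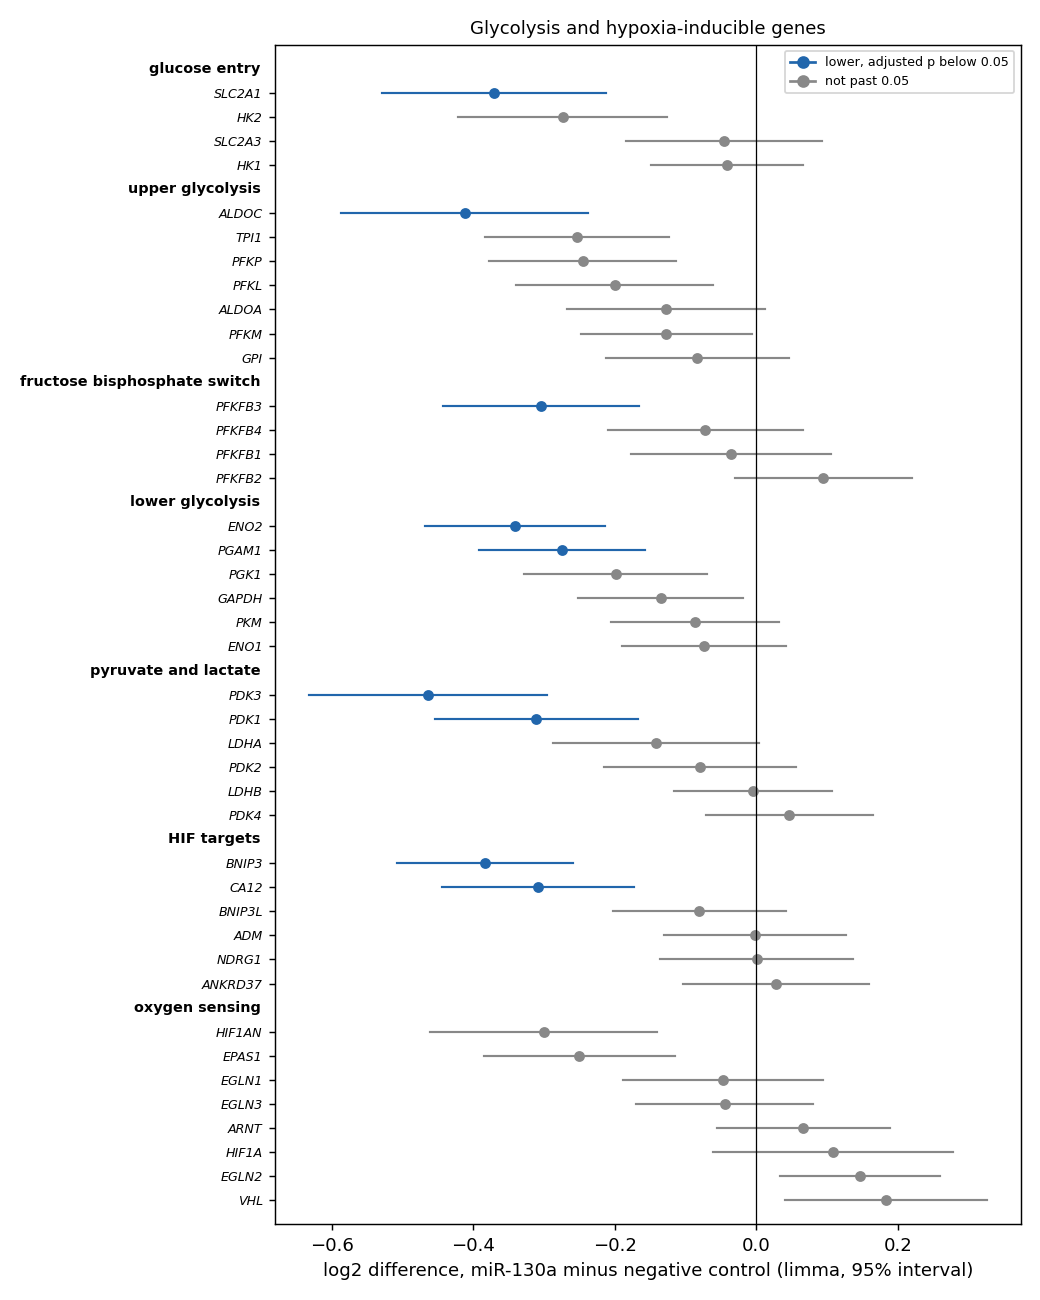
Log2 difference (miR-130a minus negative control, limma, with its 95% interval, 3 arrays per group) for the 41 measured genes, grouped by role. Blue marks the 9 genes with an adjusted p below 0.05, all lower with miR-130a; grey marks the 32 that did not pass, and 33 of the 41 points lie below 0.

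Glucose entry was represented by 2 transporters and 2 hexokinases. SLC2A1, the widely expressed glucose transporter GLUT1, lay at 8.64, 8.78 and 8.67 on miR-130a arrays 1, 2 and 3, against 9.12, 8.96 and 9.13 on control arrays 1, 2 and 3. All 3 miR-130a arrays were below all 3 controls, and SLC2A1 was 1.29-fold lower (8.70 ± 0.08 against 9.07 ± 0.10, SD, n = 3 each; difference -0.37, SE 0.068, adjusted p = 0.0274, limma). HK2, the hexokinase that many tumours induce and that HIF controls, lay at 8.55, 8.65 and 8.46 with miR-130a and at 8.88, 8.80 and 8.79 in controls. The groups did not overlap, but HK2 missed the threshold (difference -0.27, SE 0.064, adjusted p = 0.0598, limma). HK1, the housekeeping hexokinase, differed by -0.04. The neuronal-type transporter SLC2A3 differed by -0.05, on a row dimmer than the median row.

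All 7 measured enzymes of the upper pathway, from glucose phosphate to the triose phosphates, were lower without overlap, and 1 of them passed. The shares over all genes were 11.9% lower without overlap and 1.74% called lower. ALDOC, the brain-type aldolase, lay at 7.92, 8.10 and 7.85 with miR-130a, against 8.44, 8.31 and 8.36 in controls. It was 1.33-fold lower (7.96 ± 0.13 against 8.37 ± 0.06, SD, n = 3 each; difference -0.41, SE 0.075, adjusted p = 0.0262, limma), with miR-130a 2 nearest to the controls. TPI1, which interconverts the triose phosphates, lay at 8.47, 8.56 and 8.51 against 8.83, 8.70 and 8.76 in controls and fell just short of the threshold (difference -0.25, SE 0.056, adjusted p = 0.0512, limma). Phosphofructokinase, the main control point of the pathway, has platelet, liver and muscle isoforms, and PFKP differed by -0.25 (adjusted p = 0.0583, limma), PFKL by -0.20 and PFKM by -0.13. The glucose phosphate isomerase GPI differed by -0.08, with a gap of 0.0127 between the groups, and the ubiquitous aldolase ALDOA by -0.13, with a gap of 0.0022.

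The PFKFB enzymes make or remove the fructose bisphosphate that activates phosphofructokinase, and PFKFB3, with the strongest kinase activity of the family, is induced by HIF. PFKFB3 lay at 7.66, 7.80 and 7.67 with miR-130a, against 8.04, 7.95 and 8.05 in controls. It was 1.23-fold lower (7.71 ± 0.08 against 8.01 ± 0.06, SD, n = 3 each; difference -0.30, SE 0.060, adjusted p = 0.0339, limma). Its paralogs did not pass: PFKFB2, the heart isoform, differed by 0.09 (95% interval -0.03 to 0.22), PFKFB4 by -0.07 (-0.21 to 0.07) and PFKFB1, on a row dimmer than the median row, by -0.04. PFKFB2 lay at 7.18, 7.32 and 7.28 with miR-130a and at 7.15, 7.17 and 7.17 in controls, a gap of 0.006. With the replicate number as a block, PFKFB3 missed the threshold (adjusted p = 0.0636).

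In the lower pathway, where ATP is made, 2 of 6 enzymes fell, against 1.74% of all genes called lower. ENO2, the neuron-specific enolase, lay at 8.33, 8.37 and 8.35 with miR-130a, against 8.72, 8.61 and 8.74 in controls. It was 1.27-fold lower (8.35 ± 0.02 against 8.69 ± 0.07, SD, n = 3 each; difference -0.34, SE 0.055, adjusted p = 0.0161, limma), and its miR-130a values lay within 0.04 of each other. PGAM1, the phosphoglycerate mutase, lay at 9.26, 9.31 and 9.22 with miR-130a, against 9.55, 9.50 and 9.56 in controls, and was 1.21-fold lower (difference -0.27, SE 0.050, adjusted p = 0.0274, limma). PGAM1 missed the threshold with the replicate number as a block (adjusted p = 0.0661), and 13 pseudogenes carry its name in the RefSeq gene table, so its row is uncertain.

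The other 4 enzymes of this stretch, some of them common loading references, did not pass. GAPDH differed by -0.14 and PGK1 by -0.20, both without overlap but not past the threshold (adjusted p = 0.219 and 0.105, limma). PGK1 passed without negative control 3 (difference -0.24, adjusted p = 0.0224). The ubiquitous enolase ENO1 differed by -0.07 (95% interval -0.19 to 0.04) and the pyruvate kinase PKM by -0.09 (-0.21 to 0.03), with overlapping groups. For GAPDH, 65 pseudogenes carry its name. ENO2 and ENO1, and likewise ALDOC and ALDOA, are pairs in which the tissue-restricted isoform passed and the ubiquitous one did not, and the difference within a pair was not tested.

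At the fate of pyruvate, 2 of the kinases that switch off pyruvate dehydrogenase fell, and PDK3 had the largest difference of the 41 genes. The share called lower over all genes was 1.74%. PDK3 lay at 6.25, 6.27 and 6.15 with miR-130a, against 6.77, 6.74 and 6.55 in controls, so that negative control 3 was the nearest to the miR-130a arrays. It was 1.38-fold lower (6.22 ± 0.06 against 6.69 ± 0.12, SD, n = 3 each; difference -0.46, SE 0.072, adjusted p = 0.0145, limma). PDK1, a classical HIF target, lay at 7.43, 7.53 and 7.49 with miR-130a, against 7.85, 7.85 and 7.70 in controls. It was 1.24-fold lower (7.49 ± 0.05 against 7.80 ± 0.09, SD, n = 3 each; difference -0.31, SE 0.061, adjusted p = 0.0347, limma), again with negative control 3 nearest. PDK1 and PFKFB3 each overlap an annotated antisense gene (PDK1-AS1 and PFKFB3-AS1), and no source used here says which strand their probes read. The same holds for PDK2 (PDK2-AS1) and HIF1A (HIF1A-AS1, HIF1A-AS2 and HIF1A-AS3), which did not pass.

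The other 2 kinases did not pass: PDK2 differed by -0.08 (95% interval -0.22 to 0.06) and PDK4, the kinase of fasting and fat use, by 0.05 (-0.07 to 0.16). Of the lactate dehydrogenase subunits, LDHA differed by -0.14 (adjusted p = 0.320, limma) and LDHB by -0.005 (95% interval -0.12 to 0.11). LDHA, the subunit that HIF induces, lay at 9.28, 9.31 and 9.34 with miR-130a and at 9.49, 9.53 and 9.34 in controls. Its control 3 value stood at the level of miR-130a 3, and without that control LDHA passed (difference -0.20, adjusted p = 0.0307).

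**Figure D2:**
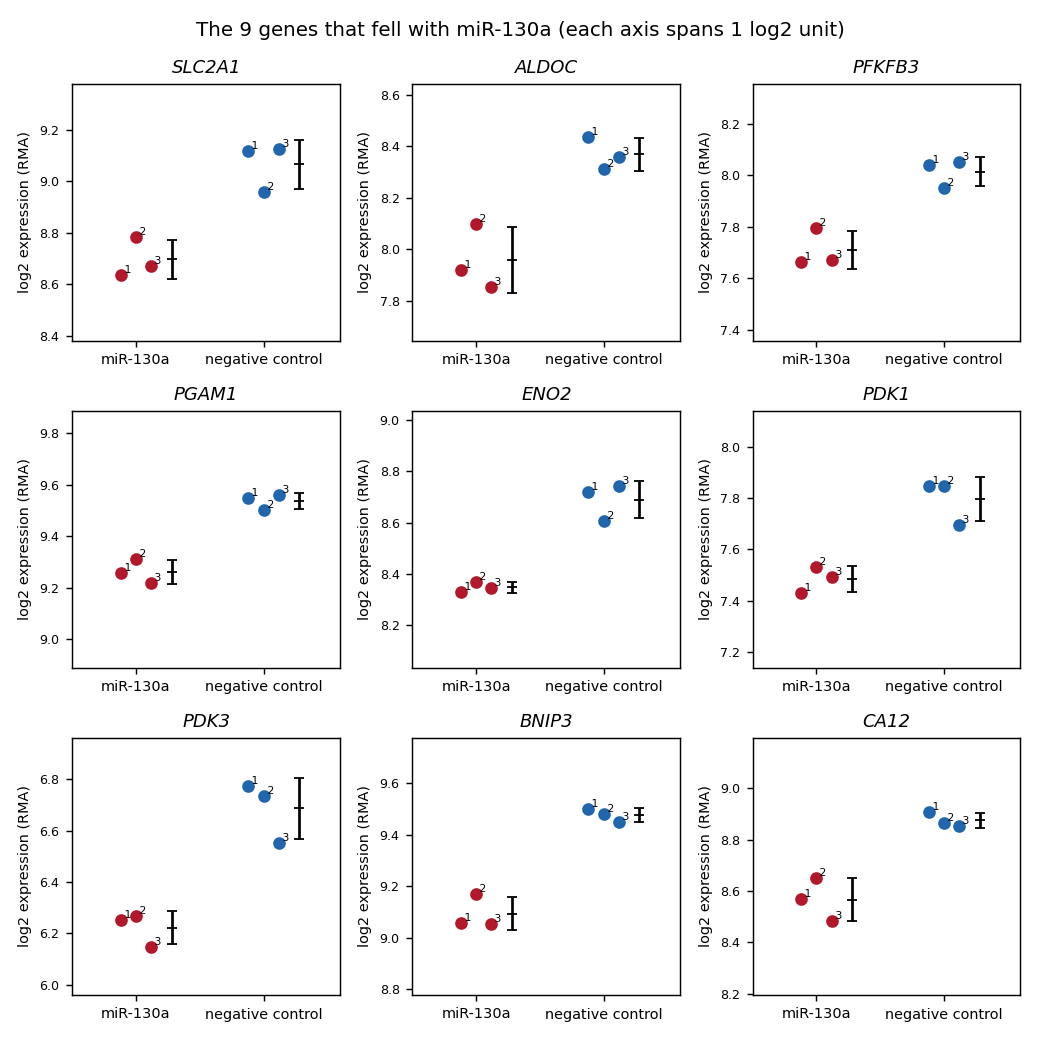
Log2 expression (RMA, vertical axis) of the 9 genes that fell, with miR-130a arrays in red at the left and negative control arrays in blue at the right of each panel; digits are replicate numbers and bars are the mean ± SD of 3 arrays. In all 9 panels the groups do not overlap and miR-130a 2 is the highest red point.

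Of the 6 HIF targets outside glycolysis, 2 fell, against 1.74% of all genes called lower. BNIP3, a receptor that marks mitochondria for removal and a well-known HIF target, lay at 9.06, 9.17 and 9.05 with miR-130a, against 9.50, 9.48 and 9.45 in controls. It was 1.30-fold lower (9.09 ± 0.07 against 9.48 ± 0.03, SD, n = 3 each; difference -0.38, SE 0.054, adjusted p = 0.0097, limma), the smallest p of the 41 genes. It passed in 12 of 15 alternative settings, more than any other of the 9, and missed without miR-130a 1 (0.073), without miR-130a 3 (0.0706) and when every row was tested (0.0587). The RefSeq table names 46 pseudogenes for BNIP3, so the row is uncertain. CA12, a membrane carbonic anhydrase that handles the acid of glycolysis, lay at 8.57, 8.65 and 8.48 with miR-130a, against 8.91, 8.86 and 8.85 in controls, and was 1.24-fold lower (difference -0.31, SE 0.058, adjusted p = 0.0298, limma).

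The other 4 HIF targets did not pass. BNIP3L, the paralog of BNIP3 that also clears mitochondria, differed by -0.08 (95% interval -0.20 to 0.04). The vasodilator peptide gene ADM differed by -0.002 (-0.13 to 0.13), the stress-induced gene NDRG1 by 0.001 (-0.14 to 0.14), and the ankyrin repeat gene ANKRD37 by 0.03 (-0.10 to 0.16). Their miR-130a and control values overlapped. The intervals of ADM, NDRG1 and ANKRD37 did not reach down to the differences of BNIP3 and CA12.

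HIF recognises a short core, ACGTG or GCGTG, and the bases before the start sites of the 41 genes were searched for it on both strands (CACGTG, which reads the same on both strands, was counted once). RefSeq windows (GRCh38.p14) were found for 36 of the 41, 63 windows in all, and the 250 bases before each start were read. At least 1 core stood before 7 of the 9 genes that fell and before 20 of 27 that did not pass. For comparison, 62% of 11629 measured genes brighter than the median row had a core in such a window. Counted by window, a core stood in 8 of 11 for the genes that fell and 25 of 52 for those that did not pass. The share was 53.3% for windows of the brighter genes and 43.2% for all 35116 windows. SLC2A1 and PGAM1 had no core in their window. Genes with several start sites had more windows to match, and a match is a description of letters, not evidence of binding. The following sequences are shown because they put 3 genes that fell beside a HIF target that did not pass; they run 5′ to 3′ on the gene's strand and end at the base before the start, with the cores in capitals.
BNIP3, chr10:131981924-131982173, minus strand, 5 cores:
BNIP3: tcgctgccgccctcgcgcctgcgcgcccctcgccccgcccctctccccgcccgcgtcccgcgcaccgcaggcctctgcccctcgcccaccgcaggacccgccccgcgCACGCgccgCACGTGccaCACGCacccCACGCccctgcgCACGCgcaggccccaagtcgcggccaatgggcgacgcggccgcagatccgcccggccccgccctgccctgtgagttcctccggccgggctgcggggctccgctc
ALDOC, chr17:28576896-28577145, minus strand, 4 cores:
ALDOC: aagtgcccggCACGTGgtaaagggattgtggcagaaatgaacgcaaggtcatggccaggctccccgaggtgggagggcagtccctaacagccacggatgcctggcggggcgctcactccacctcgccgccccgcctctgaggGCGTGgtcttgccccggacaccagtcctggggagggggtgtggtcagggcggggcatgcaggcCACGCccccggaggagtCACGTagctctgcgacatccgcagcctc
PDK3, chrX:24465036-24465285, plus strand, 2 cores:
PDK3: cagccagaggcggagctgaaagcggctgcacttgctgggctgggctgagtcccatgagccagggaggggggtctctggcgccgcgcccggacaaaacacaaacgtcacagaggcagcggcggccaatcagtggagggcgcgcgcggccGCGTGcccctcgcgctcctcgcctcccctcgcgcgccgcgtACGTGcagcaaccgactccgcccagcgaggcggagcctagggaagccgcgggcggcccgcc
ANKRD37, chr4:185396591-185396840, plus strand, 2 cores:
ANKRD37: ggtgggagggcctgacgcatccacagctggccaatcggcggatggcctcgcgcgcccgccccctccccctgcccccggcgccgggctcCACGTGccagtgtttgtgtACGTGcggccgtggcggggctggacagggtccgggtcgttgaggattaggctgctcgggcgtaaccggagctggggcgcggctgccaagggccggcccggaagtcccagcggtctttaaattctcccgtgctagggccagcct
ANKRD37 carried as many cores as PDK3, the gene with the largest difference of the 41. These 4 genes were picked for display, and a link between cores and change was not tested.

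The oxygen-sensing machinery itself had 0 genes past the threshold among 8, where 1.74% of all genes were called lower and 2.48% higher. At an unadjusted p below 0.05 (limma), 2 of the 8 were lower and 2 higher, against 8.34% and 8.16% of all genes. HIF1A, the main alpha subunit, lay at 11.29, 11.22 and 11.32 with miR-130a and at 11.19, 11.28 and 11.03 in controls, with overlapping groups (difference 0.11, 95% interval -0.06 to 0.28). Its partner ARNT differed by 0.07 (-0.06 to 0.19). EPAS1, which encodes the alpha subunit HIF-2-alpha, lay at 7.35, 7.44 and 7.34 with miR-130a and at 7.71, 7.60 and 7.58 in controls, without overlap but past the threshold only in some settings (difference -0.25, SE 0.058, adjusted p = 0.0594, limma; 0.0328 without negative control 3). HIF1AN, the asparagine hydroxylase that restrains HIF, lay at 6.85, 6.93 and 6.72 against 7.17, 7.18 and 7.05 in controls (difference -0.30, SE 0.069, adjusted p = 0.0571, limma). HIF1AN passed in 5 of 15 alternative settings, among them the replicate number as a block (adjusted p = 0.0427) and the fit without negative control 3 (adjusted p = 0.0308).

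None of the remaining brakes on HIF passed. VHL differed by 0.18 (adjusted p = 0.172, limma) and the prolyl hydroxylase EGLN2 by 0.15 (adjusted p = 0.170), both with every miR-130a value above every control. EGLN1, the hydroxylase that sets HIF levels in most cells, differed by -0.05 (95% interval -0.19 to 0.09). EGLN3, itself a strong HIF target, differed by -0.04 (-0.17 to 0.08).

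The 9 genes that fell shared a pattern over the arrays, but they were called from the same array values. The highest of the miR-130a values was on miR-130a 2 for 9 of 9, and for 28 of the 41 genes, against 34.7% of all genes. Among controls they split: negative control 2 was lowest for SLC2A1, ALDOC, PFKFB3, PGAM1 and ENO2, whereas negative control 3 was lowest for PDK1, PDK3, BNIP3 and CA12. Over the 27 glucose, pyruvate and lactate genes, the median shift from the control mean was -0.17, -0.10 and -0.16 on miR-130a arrays 1, 2 and 3, and 0.03, -0.04 and 0.0036 on control arrays 1, 2 and 3. Over all genes these shifts were -0.01, -0.02 and -0.01 with miR-130a and 0.0047, -0.04 and 0.03 in controls. Genes are not independent replicates, and array and culture cannot be told apart here.

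**Figure D3:**
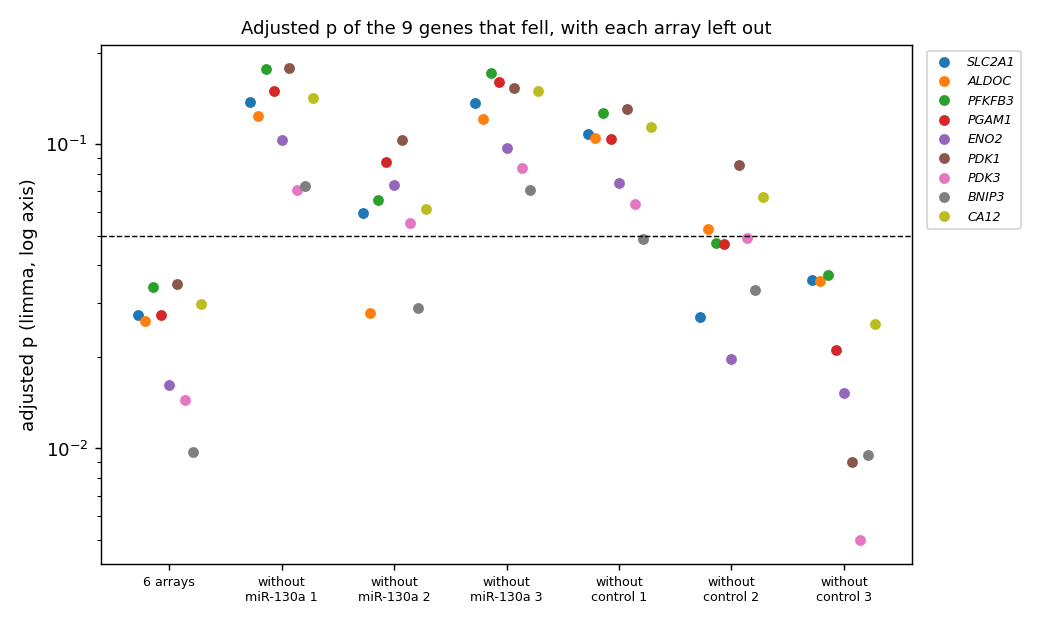
Adjusted p (limma, log axis) of the 9 genes that fell, with all 6 arrays at the left and then with each array left out in turn; the dashed line marks 0.05. All 9 points lie above the line without miR-130a 1 or miR-130a 3, and all 9 below it without negative control 3.

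A further 35 HIF targets, of which 34 were measured, showed 4 rises and 0 falls (limma). Over all genes, 2.48% were called higher and 1.74% lower. At an unadjusted p below 0.05, 7 of the 34 were higher and 7 lower, against 8.16% and 8.34% of all genes. Their median difference was -0.002, and the list was chosen with earlier results of these data known. STC2, a secreted glycoprotein, lay at 8.80, 8.78 and 8.88 with miR-130a, against 7.73, 7.65 and 7.65 in controls (2.21-fold higher, difference 1.15, SE 0.053, adjusted p = 0.000261, limma). DDIT4, which restrains the growth kinase mTOR, lay at 8.76, 8.67 and 8.82 against 7.73, 7.61 and 7.85 in controls (2.03-fold higher, difference 1.02, SE 0.074, adjusted p = 0.000911, limma). VEGFA, the vessel growth factor, lay at 8.40, 8.33 and 8.46 against 7.84, 7.82 and 7.85 in controls (1.47-fold higher, difference 0.56, SE 0.053, adjusted p = 0.00255, limma). These 3 passed in all 15 alternative settings. STC2, DDIT4 and VEGFA are also known as genes induced by ATF4, the transcription factor of amino acid and endoplasmic reticulum stress. The part of HIF or ATF4 in these rises was not tested.

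The 4th was CITED2, an inhibitor of HIF that competes for its coactivator, which rose 1.19-fold (difference 0.25, SE 0.049, adjusted p = 0.0336, limma) and missed the threshold in 8 of 15 alternative settings. The other 30 did not pass. Of the 34, 9 lay higher without overlap, the 4 that rose among them, and 7 lower, against 11.7% and 11.9% of all genes. Among those that did not pass, the cytokine MIF (difference -0.23, adjusted p = 0.0761, limma), the adenylate kinase AK4 (-0.18) and the heme oxygenase HMOX1 (-0.17) lay furthest below their controls without overlap. The crosslinking enzyme LOX (0.30, adjusted p = 0.0627), TMEM45A (0.26) and the endoplasmic reticulum oxidase ERO1A (0.21) lay furthest above them, and LOXL2 (0.07) and KDM4C (0.02) were higher without overlap as well. Without negative control 3, 5 of the 34 rose and 2 fell, against 4.88% and 5.14% of all genes. SLC2A1, PFKFB3, PDK1, BNIP3 and CA12, which are HIF targets too, fell in the same cultures. So did GBE1, a HIF target that was counted with the glycogen genes below and not among the 34.

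**Figure D4:**
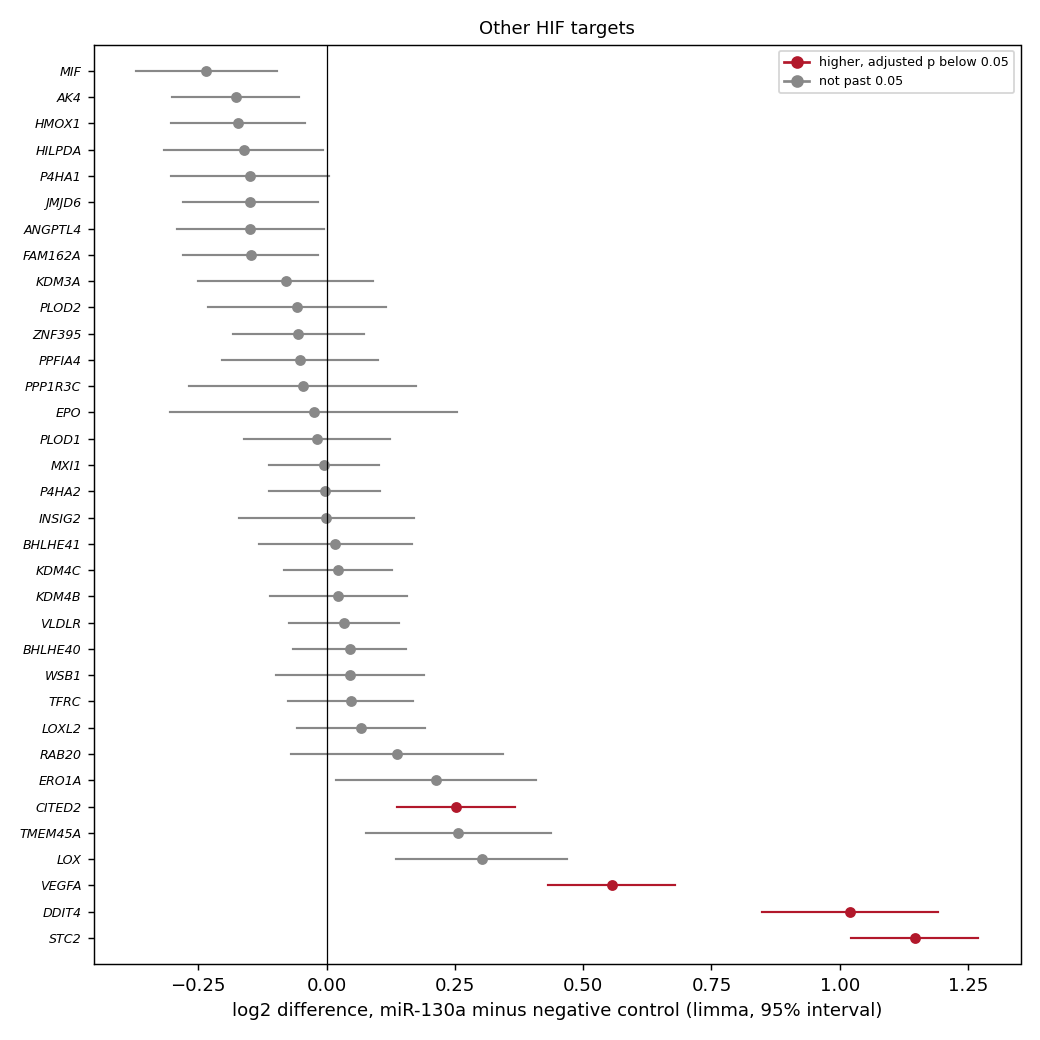
Log2 difference (miR-130a minus negative control, limma, with its 95% interval, 3 arrays per group) for 34 further HIF targets, ordered by difference. Red marks the 4 that passed, CITED2, VEGFA, DDIT4 and STC2; grey marks the 30 that did not.

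Side branches of glucose use showed changes in both directions. Of 12 measured genes of glycogen and gluconeogenesis, 2 rose and 1 fell, against 2.48% of all genes called higher and 1.74% lower. GBE1, the glycogen branching enzyme and a HIF target, lay at 7.81, 7.84 and 7.82 with miR-130a, against 8.13, 8.11 and 7.99 in controls (1.19-fold lower, difference -0.25, SE 0.054, adjusted p = 0.0464, limma). PYGB, the brain-type glycogen phosphorylase, lay at 12.09, 12.11 and 12.11 against 11.81, 11.69 and 11.74 in controls (1.28-fold higher, difference 0.35, SE 0.052, adjusted p = 0.0112, limma). PCK2, the mitochondrial phosphoenolpyruvate carboxykinase and a known ATF4 target, lay at 7.62, 7.55 and 7.58 against 7.22, 7.08 and 7.23 in controls (1.32-fold higher, difference 0.41, SE 0.059, adjusted p = 0.0112, limma). GBE1 missed the threshold in 8 of 15 alternative settings, the replicate number as a block among them (adjusted p = 0.0830 with limma).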

How the data were processed

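The authors deposited log2 expression values made by RMA in Expression Console, as the submitters' processing notes name it (the log2 scale was taken from the range of the values). Scanner files, detection calls and the genome build were not used here. Of 70753 rows, 67528 held values and 23781 carried exactly 1 gene symbol in GEO's platform annotation. Symbols were updated through Entrez identifiers (NCBI gene table, GRCh38.p14, used for names, pseudogenes and overlaps), and the brightest row stood for a gene, which left 22465 genes.

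The groups were compared with limma 3.58.1 in R 4.3.3 (lmFit, eBayes; two-sided; Benjamini-Hochberg over all genes; threshold 0.05). Folds are 2 to the power of the log2 difference, SE is limma's moderated SE and intervals are 95%. The test was checked on simulated data. The number of arrays, 3 per group, limits the precision. All measured members are named; per-array values are given for those past the threshold, the 2 with the smallest p in each role, and, chosen after their values were seen, HIF1A and LDHA. Members and lists were chosen with earlier results of these data known. Same-numbered arrays deviated from their group means with correlations of -0.067, 0.058 and 0.089, so the numbers were not taken as pairs. Alternatives covered pairing, dim rows, scaling, duplicate rows, array weights, variance model, all rows and each array left out.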

Additional observations from a re-analysis of the deposited data

How the results depend on the processing

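The sign of the difference held for each of the 9 genes that fell under all 15 settings, but the call did not. The number of genes of the list called lower was 9. It was 14 after removing dim rows, 3 after median centring, 18 with array weights, 15 with trend and robust options, 0 when every row was tested, and 0 to 15 when single arrays were left out. The number called higher was 0, and 1 (EGLN2) with array weights. The HIF targets changed numbered 2, but 1 after median centring, 0 when every row was tested, and 0 to 2 with single arrays left out. The glycolysis and pyruvate genes changed numbered 7, but 2 after median centring, 14 with array weights, 11 with trend and robust options, 0 when every row was tested, and 0 to 11 with single arrays left out. Over all genes 950 changed, against 520 after median centring, 3065 with array weights, 1449 with trend and robust options, 448 of all rows, and 237 to 2252 with single arrays left out. The array weights ran from 0.1469 for negative control 3 to 2.581 for miR-130a 1; they were estimated gene by gene, because limma's default estimate did not converge. Fits with fewer arrays have less power, yet the fit without negative control 3 called more, 15 genes of the list and 2252 over all genes. Testing every row adjusts over more tests. What moved the counts was not tested. With the replicate number as a block, 8 genes of the list fell, PFKFB3 and PGAM1 being lost and HIF1AN gained, and 818 genes changed in all.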

Other observations

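Around the mitochondrial entry of pyruvate, 1 of 10 measured genes passed, a rise, against 2.48% of all genes called higher. It encodes the opponent of the PDK kinases, and a link to their falls was not tested. PDP1, the phosphatase that switches pyruvate dehydrogenase on, lay at 7.87, 7.86 and 7.89 on miR-130a arrays 1, 2 and 3, against 7.50, 7.46 and 7.37 on the control arrays, 1.35-fold higher (difference 0.43, SE 0.053, adjusted p = 0.00626, limma). It passed in 14 of 15 alternative settings and missed without miR-130a 3 (adjusted p = 0.051). The pyruvate carrier genes MPC1 and MPC2 differed by 0.11 and -0.04, and the dehydrogenase subunits PDHA1 and PDHB by -0.004 and 0.02, with no call among them.

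A further list held 12 measured relatives of the glycolytic enzymes and of the glucose and lactate transporters. They were chosen as tissue-restricted, though 10 of the 12 were brighter than the median row. HKDC1, a hexokinase domain protein, rose 1.23-fold (difference 0.29, SE 0.048, adjusted p = 0.0169, limma), and the other 11 genes did not pass. It missed the threshold in 5 of 15 alternative settings. Over all genes, 2.48% were called higher. The pentose phosphate pathway, which draws on the same glucose phosphate, had 0 of 5 measured genes past the threshold (limma). At an unadjusted p below 0.05, 1 was higher, against 8.16% of all genes. All 5 differences lay above 0, where 56.8% of all genes lay below 0. The largest was for PGD (0.17, adjusted p = 0.145, limma).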
